A study of Mus musculus with 6 samples.

Results

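The 30 genes described here encode the proteins with which Schwann cells build and keep peripheral myelin, together with the factors and receptors that direct this programme. They were chosen as a list of gene symbols by their role in myelination, with earlier results of these data known. All 30 were found among the 48401 gene symbols listed for each library. All 30 had a mean level of at least 1 TPM (a level scaled to gene length and library total) over the 6 libraries, and so all stood among the 19141 genes tested. Gene expression was measured by bulk RNA sequencing of L4/5 dorsal root ganglia, which hold the cell bodies of sensory neurons and the glia around them and their axons. The mice were male C57BL/6J, 8 weeks old, and carried no stated genetic change. All had received an intrathecal injection of small interfering RNA, into the fluid around the spinal cord, which was siCLAP in 3 libraries and siNC, taken here as the control siRNA, in the other 3. The labels do not say whether each library came from a separate mouse, nor how long after the injection the ganglia were taken, and p-values therefore reflect nothing but how much these 6 libraries vary. CLAP, the targeted transcript, was not itself analysed.

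Schwann cells wrap the large-diameter axons of peripheral nerve in a spiral of membrane, which compacts into myelin where the cytoplasm is pressed out. Channels of cytoplasm remain at the paranodes, at the incisures and along the outer surface, and each of these places has its own proteins. Axonal neuregulin acts through the receptors ErbB2 and ErbB3, Pou3f1 (also called Oct6) acts in the promyelinating stage, and Egr2 (also called Krox20) then turns on the genes for myelin proteins and myelin lipids. Dorsal root ganglia hold such cells around the myelinated axons that pass through them, beside satellite glia around the neuron cell bodies. In bulk libraries, fewer cells of a type and less RNA per cell cannot be told apart.

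Of the 30 genes, 1 fell in siCLAP, none rose and 29 did not pass the test, which was edgeR's quasi-likelihood test with a Benjamini-Hochberg adjusted p under 0.05 over all genes tested. The gene that fell was Egr2. Over all genes tested, 0.219% fell and 0.0731% rose. The fitted log2 fold change, siCLAP minus siNC, was below 0 for 23 of the 30 and above 0 for 7, whereas 50.5% of all genes tested were below 0. Its median over the 30 was -0.16, within a range of -0.76 to 0.26, beside -0.0018 over all genes tested. At an unadjusted p under 0.05 in the same fit, 10 of the 30 were lower and 1, Tspan2, was higher, beside 8.75% and 8.22% of all genes. In 6 of the 30, Egr2, Mal, Fa2h, Dusp15, Arhgef10 and Bcas1, every siCLAP library was below every siNC library, beside 10.7% of all genes. In 1, Pou3f1, every siCLAP library was above every siNC library, beside 10.8% of all genes. In the other 23 the groups overlapped.

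**Figure D1:**
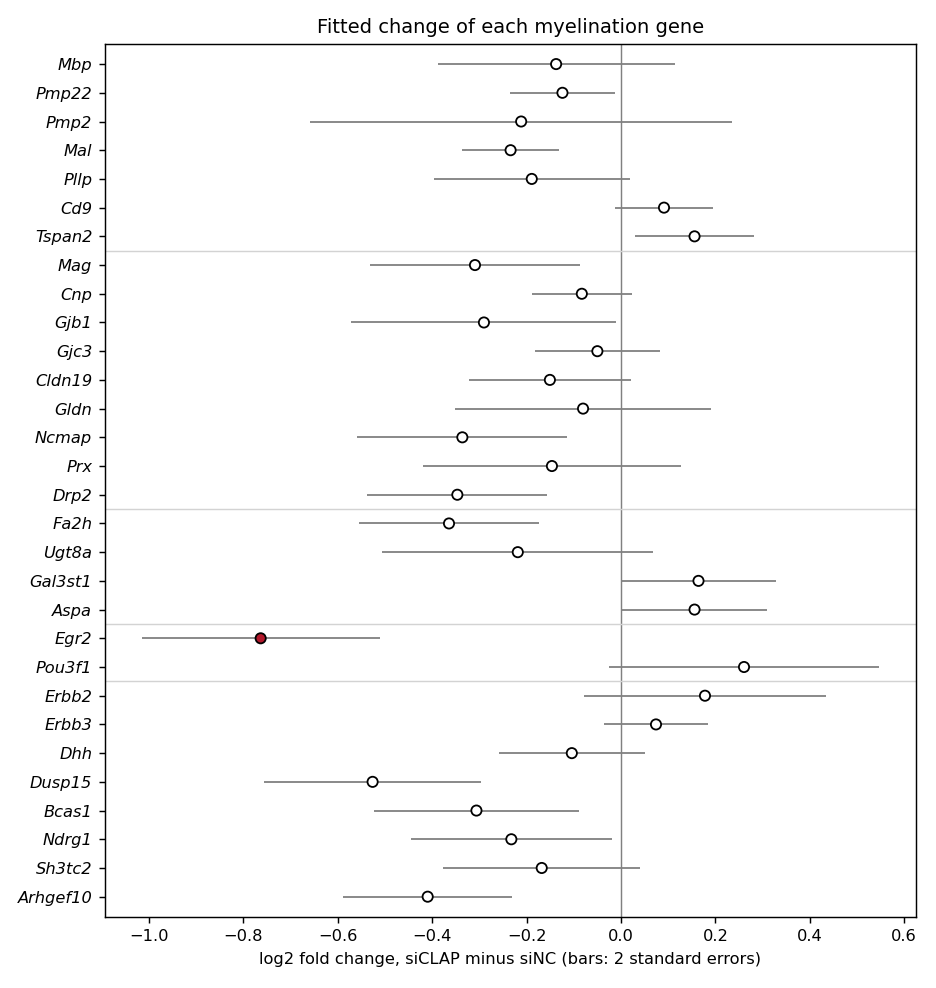
Fitted log2 fold change of each of the 30 genes, siCLAP minus siNC, with bars of 2 standard errors from edgeR's fit, in 5 blocks from compact myelin at the top to signalling and trafficking at the bottom. The filled point is Egr2, at -0.76, the 1 gene with an adjusted p under 0.05. Points of 23 genes lie left of 0.

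Before the values of single genes, the DNA in front of 4 of them is shown. They are Egr2 as the gene that fell, Mal as a myelin membrane gene whose groups did not overlap, Prx as a structural gene whose groups overlapped, and Pmp22 as the most abundant of the 30. Each line gives the 250 bases in front of a RefSeq transcript start, on the gene's own strand, in build GRCm38.p6. That start coincides with the start of a principal GENCODE transcript. Egr2 had 5 windows and Pmp22 had 4, of which 1 each is shown, while Mal and Prx had 1. The Egr2 window lies inside the annotated span of Egr2. Bases just after the start were found unbroken in a GENCODE transcript for Egr2, Mal and Pmp22, but not for Prx. Egr2 is on the plus strand at chr10:67537619-67537868, Mal on the minus strand at chr2:127656696-127656945, Prx on the plus strand at chr7:27499074-27499323 and Pmp22 on the plus strand at chr11:63128732-63128981. Capitals mark matches, on either strand, to any of 5 motifs. These were the CRE-type site TGACG, the CArG box, the SOX-type site ACAAAG, the EGR-type site GCGTGGGCG and the CCAAT box, whose letters are its name.
Egr2: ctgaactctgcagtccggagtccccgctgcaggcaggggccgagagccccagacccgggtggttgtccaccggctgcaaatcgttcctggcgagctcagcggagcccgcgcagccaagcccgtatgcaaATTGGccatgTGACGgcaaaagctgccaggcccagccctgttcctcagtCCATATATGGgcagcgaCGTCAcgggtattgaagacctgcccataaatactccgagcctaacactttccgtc
Mal: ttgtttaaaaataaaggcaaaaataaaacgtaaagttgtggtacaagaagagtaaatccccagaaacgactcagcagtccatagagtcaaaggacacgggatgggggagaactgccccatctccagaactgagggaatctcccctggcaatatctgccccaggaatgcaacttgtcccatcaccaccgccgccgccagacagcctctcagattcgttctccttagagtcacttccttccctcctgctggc
Prx: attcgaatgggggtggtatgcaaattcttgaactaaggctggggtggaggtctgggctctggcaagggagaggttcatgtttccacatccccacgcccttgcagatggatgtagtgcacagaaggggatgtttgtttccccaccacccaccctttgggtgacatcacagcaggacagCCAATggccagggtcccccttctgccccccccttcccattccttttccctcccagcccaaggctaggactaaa
Pmp22: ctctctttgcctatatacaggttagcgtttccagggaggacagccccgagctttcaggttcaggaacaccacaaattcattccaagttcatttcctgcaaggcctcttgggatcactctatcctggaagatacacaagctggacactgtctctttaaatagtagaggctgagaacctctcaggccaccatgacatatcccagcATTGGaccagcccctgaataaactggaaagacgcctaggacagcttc

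The Egr2 window held a CArG box 72 bases before the start, CRE-type sites 111 and 55 bases before it, the second on the opposite strand, and a CCAAT box on the opposite strand 121 bases before it, none overlapping another. Prx held a CCAAT box 73 bases before its start and Pmp22 one on the opposite strand 47 bases before its start, while the Mal window held none of the 5 motifs. Windows were at hand for 19 of the 30 genes, 36 windows in all, and windows of 1 gene can overlap. The CArG box was in 13.9% of these and in 1.47% of all 32851 windows, and the member windows with it belonged to Egr2 and Aspa alone. The other shares were 19.4% of the genes' windows against 17.8% of all windows for the CRE-type site, 44.4% against 33.8% for the CCAAT box, and 16.7% against 16.5% for the SOX-type site. The EGR-type site was in 0 of the 36 windows and in 0.536% of all windows. A match is a run of letters and says nothing about whether a factor was bound in these ganglia.

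Of the 2 transcription factors in the set, Egr2 fell and Pou3f1 did not pass. Egr2 (GENCODE M21, GRCm38, chr10:67535475-67542188, plus strand) stood at 22.2, 18.5 and 15.8 CPM (counts scaled to library size) in the control libraries, given here and below in the order of their numbers, siNC-1 first. In the siCLAP libraries it stood at 10.3, 10.3 and 12.9 CPM. Each siCLAP library was below each siNC library, and siCLAP-3 came closest to the control range. Per gene length the means were 16.7 ± 2.91 TPM in siNC and 9.8 ± 1.30 TPM in siCLAP (SD, n = 3 each). The fitted log2 fold change was -0.76 ± 0.13 (SE), a change of -41.1%, with an edgeR adjusted p of 0.0389. The expected counts behind it were 270 to 852 reads per library, and no exon of Egr2 overlaps another gene in the annotation. Egr2 is also made by cells other than Schwann cells, among them as an early response gene, and the libraries do not separate these sources.

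The call of Egr2 stood close to its threshold. Its log2 fold change ranged from -0.88 to -0.63 over 17 alternative analyses and its adjusted p from 3.7e-06 to 0.224. The call held in 10 of them, among them DESeq2, limma voom and all other scaling factors tried. It was lost with limma on log2 TPM, at an adjusted p of 0.166 to 0.167. It was also lost when siNC-1 was left out (edgeR adjusted p = 0.086), and likewise without siNC-3 (0.105), siCLAP-1 (0.224) or siCLAP-2 (0.0801).

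Pou3f1 was the lowest of the 30 per gene length, at 3.5 ± 0.609 TPM in siNC and 4.19 ± 0.326 TPM in siCLAP (SD, n = 3 each). It read 4.41, 4.44 and 3.20 CPM in siNC and 5.26, 4.80 and 4.49 CPM in siCLAP. The groups lay side by side without overlap, the highest siNC library just under the lowest siCLAP library, and the fitted log2 fold change was 0.26 ± 0.14 (edgeR adjusted p = 0.38). Its lowest count was 68.5 reads, in siNC-3, the fewest of any of the 30 genes in any library.

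Compact myelin and its membrane proteins made up 7 of the 30 genes. None passed, 5 had a log2 fold change below 0 and 2 above, and their median was -0.14. Pmp22, an integral protein of compact myelin whose dosage underlies inherited neuropathy, was the most abundant of the 30 at 1709 ± 141 TPM in siNC and 1550 ± 67.9 TPM in siCLAP (SD, n = 3 each). It is also made outside Schwann cells. It read 1293, 1123 and 1206 CPM in siNC and 1123, 1146 and 1054 CPM in siCLAP. siNC-2 lay within the siCLAP range, and the log2 fold change was -0.12 ± 0.06 (edgeR adjusted p = 0.288).

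Mal (chr2:127633226-127656695, minus strand), a raft-associated membrane protein of compact myelin, read 106, 98.4 and 99.9 CPM in siNC and 82.5, 90.8 and 85.6 CPM in siCLAP. Its groups did not overlap and each was tight, so that a log2 fold change of -0.23 ± 0.05 came with an edgeR adjusted p of 0.0765. DESeq2 called it lower at an adjusted p under 0.05. The fitted change of -15% was the smallest in size among the 6 genes with all siCLAP libraries lower.

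Mbp, the basic protein that holds the cytoplasmic faces of the membrane together, behaved otherwise. It read 211, 138 and 185 CPM in siNC and 179, 156 and 150 CPM in siCLAP. The highest and the lowest of the 6 libraries were both siNC libraries, so the siCLAP values lay inside the control range, and the log2 fold change was -0.14 ± 0.13 (edgeR adjusted p = 0.609). Without siNC-1 it was 0.0096.

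Pllp, the tetraspan protein plasmolipin, had 44.8, 31.6 and 39.1 CPM in siNC and 34.2, 33.9 and 32.9 CPM in siCLAP. siNC-2 was the lowest library of all, below the tightly grouped siCLAP values, and the log2 fold change was -0.19 ± 0.10 (edgeR adjusted p = 0.38). Pmp2, the fatty acid binding protein of myelin, varied most among the siCLAP libraries, from 14.3 CPM in siCLAP-1 to 7.18 CPM in siCLAP-3. Its log2 fold change of -0.21 ± 0.22 was smaller than its standard error. The tetraspanins Cd9 and Tspan2, which are made in other cells too, were the 2 compact myelin genes above 0, at 0.09 ± 0.05 and 0.16 ± 0.06. Tspan2 read 93.9, 110.0 and 97.9 CPM in siNC and 112, 118 and 107 CPM in siCLAP, with siNC-2 inside the siCLAP range (edgeR adjusted p = 0.245).

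**Figure D2:**
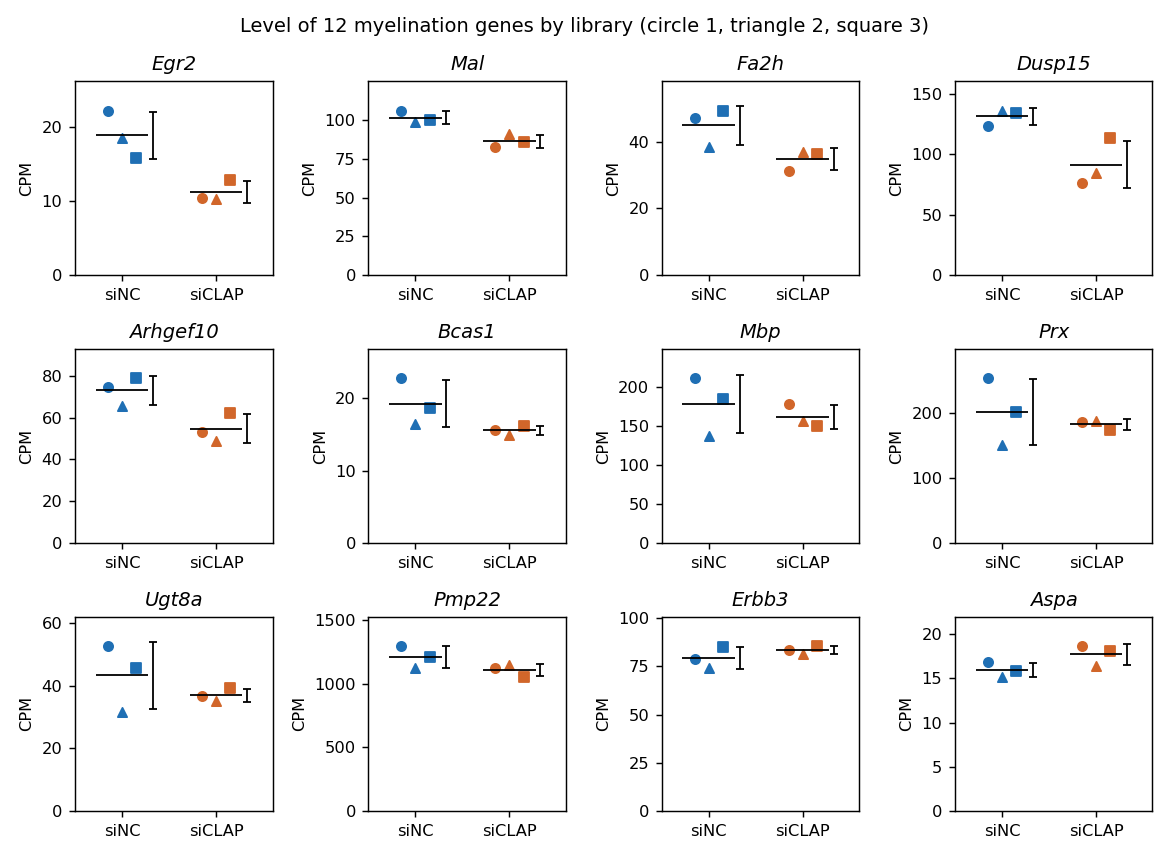
Level in CPM (y axes, from 0) of 12 of the genes in each library, with the group mean as a line and the SD as a bar beside it (n = 3 each). Egr2, Mal, Fa2h, Dusp15, Arhgef10 and Bcas1 show no overlap between siNC and siCLAP. In Mbp, Prx and Ugt8a the triangle of siNC-2 is the lowest point of all 6 libraries.

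The 9 genes of non-compact myelin, gap junctions, nodes and the outer surface all had a log2 fold change below 0, with a median of -0.15, and none passed. In none of the 9 were the groups separate, because siNC-2 or a siCLAP library crossed over. Drp2, which joins periaxin to dystroglycan at the outer Schwann cell membrane, read 221, 162 and 210 CPM in siNC and 153, 148 and 164 CPM in siCLAP. Only siNC-2 lay inside the siCLAP range, just below siCLAP-3, and the log2 fold change was -0.35 ± 0.10 (edgeR adjusted p = 0.113). Prx, periaxin itself, read 253, 152 and 202 CPM in siNC and 187, 187 and 173 CPM in siCLAP. Here siNC-2 was below all siCLAP libraries, and the log2 fold change was -0.15 ± 0.14 (edgeR adjusted p = 0.619). Prx had the widest control range of the 30 genes, with siNC-1 at 1.67 times siNC-2, against 1.08 times between the highest and lowest siCLAP library.

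Ncmap, a membrane protein of non-compact myelin, had 46.7, 32.7 and 42.9 CPM in siNC and 32.4, 34.0 and 30.1 CPM in siCLAP. siNC-1 and siNC-3 were well above the siCLAP libraries and siNC-2 was among them, with a log2 fold change of -0.34 ± 0.11 (edgeR adjusted p = 0.168). Mag, the adhesion protein of the membrane that faces the axon, likewise had siNC-2 inside the siCLAP range, with 20.4, 15.9 and 21.3 CPM in siNC and 14.6, 14.5 and 17.0 CPM in siCLAP. Its log2 fold change was -0.31 ± 0.11 (edgeR adjusted p = 0.2). Gjb1, connexin 32, which forms gap junctions through the layers of non-compact myelin, read 10.4, 7.01 and 9.73 CPM in siNC and 7.30, 7.59 and 7.08 CPM in siCLAP, where siNC-2 was again the lowest of all (-0.29 ± 0.14).

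The other 4 of the 9 lay within 2 standard errors of 0, as Prx did. Cldn19, the claudin of Schwann cell tight junctions, stood at -0.15 ± 0.09, and Cnp, a phosphodiesterase of the cytoplasmic channels, at -0.08 ± 0.05. Gldn, gliomedin, which gathers sodium channels at nodes, stood at -0.08 ± 0.14, and Gjc3, connexin 29, at -0.05 ± 0.07. In Gjc3 the highest library was siCLAP-3. Exons of Cnp overlap those of Dnajc7, which had up to 154 CPM, and reads may have been shared between them.

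Among the 4 enzymes of myelin lipids, none passed and the 2 directions were equally common. Fa2h (chr8:111345135-111393824, minus strand), which puts the hydroxyl group on the fatty acids of myelin lipids, read 47.0, 38.3 and 49.2 CPM in siNC and 31.1, 36.9 and 36.2 CPM in siCLAP. All siCLAP libraries were below all siNC libraries, with siNC-2 nearest to them, and the log2 fold change was -0.36 ± 0.10 (edgeR adjusted p = 0.101). Ugt8a, which adds galactose to ceramide to form galactosylceramide, read 52.5, 31.7 and 45.5 CPM in siNC and 36.8, 35.0 and 39.1 CPM in siCLAP. siNC-2 was the lowest library and siNC-1 and siNC-3 were the highest, so that the log2 fold change of -0.22 ± 0.14 became -0.41 without siNC-2 and -0.04 without siNC-1.

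Gal3st1, which sulfates galactosylceramide to sulfatide, read 13.4, 12.02 and 12.2 CPM in siNC and 14.5, 13.1 and 14.5 CPM in siCLAP. Aspa, which frees acetate for lipid synthesis from N-acetylaspartate, read 16.8, 15.2 and 15.8 CPM in siNC and 18.6, 16.4 and 18.1 CPM in siCLAP. In both genes siCLAP-1 and siCLAP-3 were above all siNC libraries and siCLAP-2 was below siNC-1. Both had a log2 fold change of 0.16 ± 0.08 (edgeR adjusted p = 0.338 and 0.329). The enzymes on either side of galactosylceramide, Ugt8a and Gal3st1, thus had estimates of opposite sign, neither of which passed, and the difference between them was not tested.

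Receptors, ligands, signalling and trafficking proteins made up the remaining 8 genes. None passed, 6 were below 0 and 2 above, and their median was -0.20. The 2 above 0 were the neuregulin receptors. Erbb3 read 78.7, 74.3 and 85.2 CPM in siNC and 83.4, 81.2 and 85.5 CPM in siCLAP, with overlapping groups and a log2 fold change of 0.07 ± 0.06 (edgeR adjusted p = 0.524). Erbb2, its signalling partner, read 14.1, 10.8 and 14.7 CPM in siNC and 17.0, 14.2 and 13.0 CPM in siCLAP, also overlapping (0.18 ± 0.13). Erbb2 shares exon sequence with Mien1, at up to 20.6 CPM. Dhh, the hedgehog ligand that Schwann cells send to the perineurium, read 53.5, 44.5 and 55.5 CPM in siNC and 48.4, 45.3 and 48.4 CPM in siCLAP, and stood at -0.10 ± 0.08.

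Arhgef10 (chr8:14911663-15001085, plus strand), a gene with variants known in slowed nerve conduction, read 74.7, 65.5 and 78.7 CPM in siNC and 53.0, 48.9 and 62.4 CPM in siCLAP. Its groups did not overlap, siCLAP-3 and siNC-2 being the nearest pair, and the log2 fold change was -0.41 ± 0.09 (edgeR adjusted p = 0.0765). Dusp15 (chr2:152940997-152951698, minus strand), a dual specificity phosphatase, read 123, 136 and 134 CPM in siNC and 76.1, 84.5 and 113 CPM in siCLAP. siCLAP-3 stood between the other siCLAP libraries and the tight control group, and the log2 fold change was -0.53 ± 0.11, second in size to that of Egr2 (edgeR adjusted p = 0.0765). Bcas1, a protein of early myelin-forming cells, read 22.7, 16.4 and 18.6 CPM in siNC and 15.6, 14.8 and 16.1 CPM in siCLAP. The gap between siNC-2 and siCLAP-3 was small against the range of the control group, and the log2 fold change was -0.31 ± 0.11 (edgeR adjusted p = 0.196).

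Ndrg1 and Sh3tc2 are both needed in Schwann cells and both are mutated in demyelinating neuropathies. Ndrg1, a trafficking protein that other cells make too, read 147, 103 and 123 CPM in siNC and 104, 98.1 and 115 CPM in siCLAP. Sh3tc2, a protein of recycling endosomes, read 8.94, 7.6 and 8.52 CPM in siNC and 6.92, 7.49 and 7.91 CPM in siCLAP. In each, siNC-2 lay within the siCLAP range, and the log2 fold changes were -0.23 ± 0.11 and -0.17 ± 0.10. An exon of Ndrg1 overlaps the gene model Gm17035, at up to 129 CPM.

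DESeq2, run on the same counts, called 5 of the 30 genes lower, Arhgef10, Egr2, Fa2h, Mal and Ncmap, where it called 1.95% of all genes tested lower. It called none of the 30 higher. Arhgef10, Drp2, Dusp15, Fa2h, Mal and Ncmap passed in between 2 and 5 of the 17 alternatives, and Ugt8a in 1, each time as lower. The remaining 22 genes passed in none.

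Many of the 30 genes shared an order of the 6 libraries that was not the order of the treatment groups. The median over the genes of the log2 level relative to each gene's own mean was 0.24 in siNC-1, -0.11 in siNC-2 and 0.11 in siNC-3. In the siCLAP libraries it was -0.068, -0.080 and -0.082. The siCLAP libraries were thus nearly level with one another and siNC-2 was just below them, while siNC-1 and siNC-3 were above. Over all genes tested the same medians lay between -0.00079 and 0.0058.

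The plot of each gene by library shows how widely this order was shared. siNC-2 was the lowest siNC library for 25 of the 30 genes, or 83.3%, beside 32.5% of all genes tested. The exceptions were Cd9, Tspan2, Egr2, Pou3f1 and Dusp15. In 14 genes, or 46.7%, siNC-1 and siNC-3 were both above all siCLAP libraries while siNC-2 was not, beside 7.66% of all genes. These 14 were Mbp, Pmp22, Pllp, Mag, Cnp, Gjb1, Cldn19, Ncmap, Prx, Drp2, Ugt8a, Dhh, Ndrg1 and Sh3tc2. siNC-1 was the highest of the 6 libraries for 16 genes, or 53.3%, beside 18.1% of all genes, and siNC-2 the lowest for 12, or 40.0%, beside 11.7%.

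**Figure D3:**
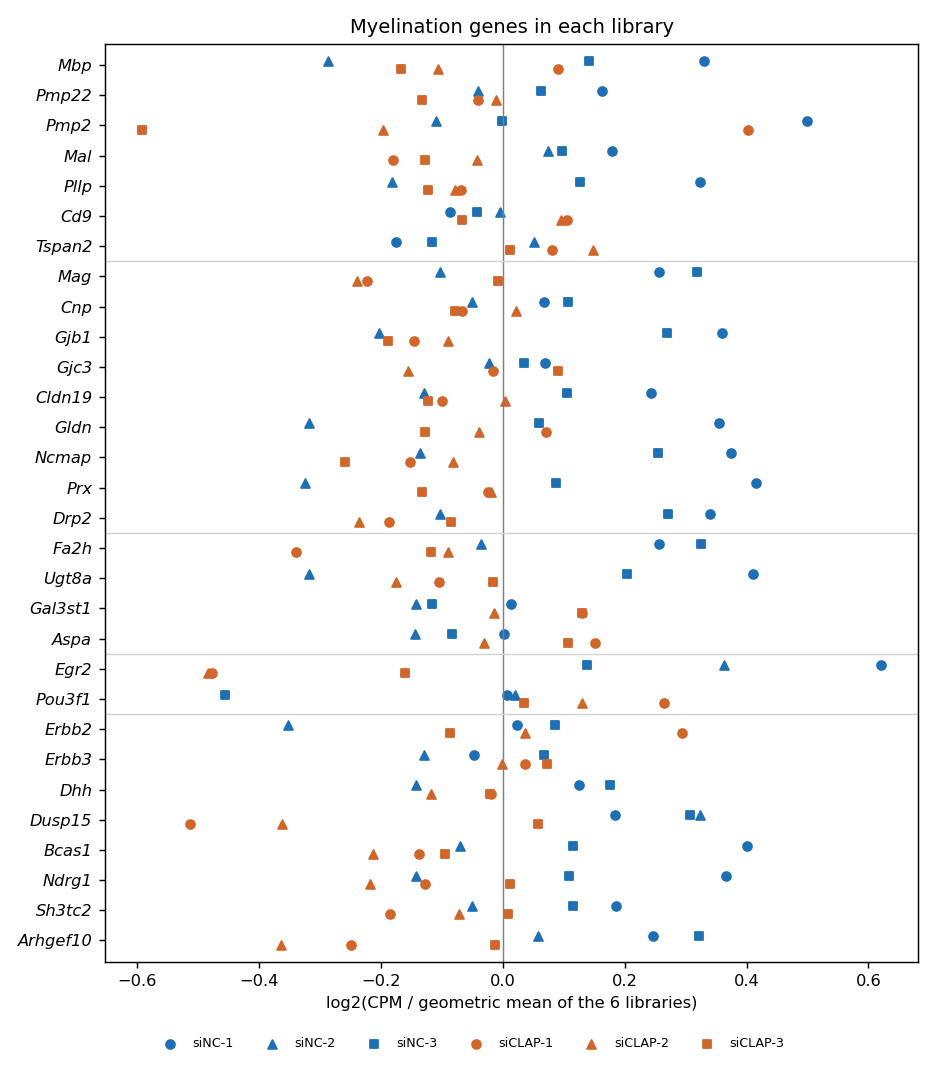
Level of each of the 30 genes in each library on the x axis, as log2 of its CPM over the gene's geometric mean across the 6 libraries. Blue is siNC and orange siCLAP, with circles, triangles and squares for libraries 1, 2 and 3. Blue circles and squares lie mostly to the right of 0, and blue triangles mostly to the left, among the orange points.

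The control libraries were also more spread than the siCLAP libraries. The ratio of the highest to the lowest library had a median over the 30 genes of 1.32 within siNC and 1.13 within siCLAP, beside 1.14 for either group over all genes tested. The siNC range was the wider in 23 genes, beside 48.0% of all genes. The 7 exceptions were Pmp2, Mal, Cd9, Gjc3, Aspa, Dusp15 and Arhgef10, of which Mal, Dusp15 and Arhgef10 had non-overlapping groups. Summed TPM of the 28 genes other than Pmp22 and Cd9 was 1388, 1096 and 1295 in the siNC libraries and 1081, 1079 and 1100 in the siCLAP libraries. By this sum, too, siNC-2 stood with the siCLAP libraries.

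Leaving out single control libraries therefore moved the estimates of the set in opposite directions. Without siNC-1 the median log2 fold change was -0.06, 19 of the 30 were below 0, and none passed, beside 0.167% of all genes tested that passed as lower. Without siNC-2 it was -0.28, 23 were below 0, and 6 passed, all lower, namely Arhgef10, Drp2, Egr2, Fa2h, Ncmap and Ugt8a, beside 0.564% of all genes. Without siNC-3 it was -0.16, and none passed, beside 0.021% of all genes. Without siCLAP-1, siCLAP-2 or siCLAP-3 the median was -0.19, -0.17 and -0.12, with none, none and 3 genes passing. The 3 were Arhgef10, Dusp15 and Egr2. Over all genes 0.0%, 0.151% and 1.17% passed as lower in these fits. None of the 30 passed as higher in any of these. Mbp, Pmp2, Gldn and Prx changed sign without siNC-1, to 0.0096, 0.00504, 0.11 and 0.055, and Gjc3 without siCLAP-2, to 0.00402.

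**Figure D4:**
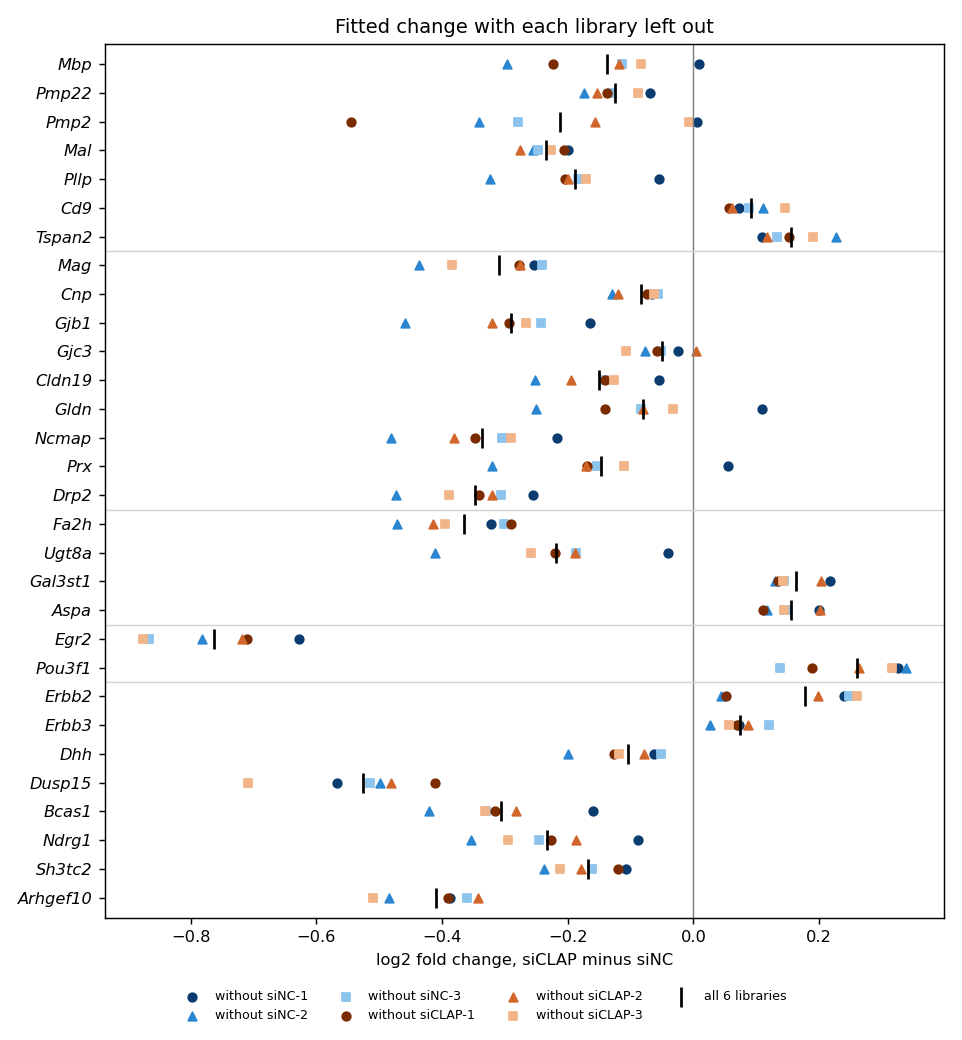
Fitted log2 fold change of each gene with all 6 libraries (black bar) and with each library left out in turn (coloured points). In Gldn, Prx, Ugt8a and Ndrg1, for example, the point without siNC-1 lies farthest right and the point without siNC-2 farthest left. Egr2 stayed between -0.88 and -0.63.

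Beyond the 30 genes, 34 further genes of the myelin pathway were tested, among them partners of Egr2, neuregulin and its processing enzymes, adhesion proteins, the laminin receptor and phosphoinositide phosphatases. None fell and none rose. Of these, 23 were below 0, and the median log2 fold change was -0.05. Itgb4, the integrin of the outer Schwann cell surface, read 62.9, 40.4 and 57.8 CPM in siNC and 37.9, 42.1 and 44.7 CPM in siCLAP, siNC-2 lying inside the siCLAP range as in Drp2 (-0.36 ± 0.13, edgeR adjusted p = 0.209). Dlg1, a scaffold protein that limits myelin thickness, had a log2 fold change of -0.19 ± 0.07 (edgeR adjusted p = 0.196).

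Genes of immature and repair Schwann cells, the states in which the myelin programme is off, were given the same test. Of 16 listed, 11 were tested, none passed, and 8 were above 0, with a median of 0.06. Sox2, a factor that holds Schwann cells in the immature state and that satellite glia also express, read 10.96, 12.4 and 12.2 CPM in siNC and 16.2, 17.9 and 14.1 CPM in siCLAP. Its groups did not overlap, and the log2 fold change was 0.44 ± 0.10 (edgeR adjusted p = 0.08). Of 7 non-myelinating Schwann cell genes none passed, with a median of -0.03. L1cam and Ncam1 stand on both lists, and neurons also express them. Their log2 fold changes were -0.24 ± 0.05 and -0.20 ± 0.06 (edgeR adjusted p = 0.08 and 0.139). In both, every siCLAP library was below every siNC library. The immature and repair list summed to 2459 to 2553 CPM in siNC and 2186 to 2503 CPM in siCLAP. L1cam alone made up 906 to 925 CPM of this sum in siNC and 716 to 836 CPM in siCLAP.

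Several of the 30 genes are also myelin genes of oligodendrocytes, the myelinating cells of the central nervous system, so markers of that cell type were read in the same libraries. Mog, Opalin and Olig2 were at most 0.343, 0.034 and 0.0282 CPM in any library, and Mobp at most 0.922 CPM. The rest of the list, Gpr17, Nkx6-2, Hapln2 and Ermn, was above 0 in every library. These genes reached 3.664, 2.1, 1.447 and 1.296 CPM. Whether RNA of oligodendrocytes was present was not tested. The 8 markers summed to 6.40 to 7.54 CPM in siNC and 6.30 to 6.55 CPM in siCLAP. Of these, Opalin and Olig2 were at 0 in most libraries, whereas Mog was low but above 0 in every library. Of the 3 that were tested, none passed. Gpr17 stood at -0.64 ± 0.21 and Nkx6-2 at 0.61 ± 0.18 (edgeR adjusted p = 0.163 and 0.137).

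Markers of other cell types of the ganglion were read in the same libraries. Markers of leptomeninges, the thin tissue layers that sheathe the cord and the nerve roots, summed to 46.7, 14.1 and 55.0 CPM in siNC and 12.9, 9.89 and 8.25 CPM in siCLAP. In this sum, as for the myelin genes, siNC-1 and siNC-3 were high and siNC-2 was near the siCLAP libraries. Here siNC-2 was above them, however, and siNC-3 was the highest. None of the 6 tested of 9 listed passed, and all 6 were below 0. Ptgds, which glia also make, had 30.7, 6.72 and 31.3 CPM in siNC and 4.70, 2.31 and 1.26 CPM in siCLAP (-2.96 ± 0.56, edgeR adjusted p = 0.056). It was most of the sum in siNC-1 and siNC-3. Slc47a1 read 1.80, 1.63 and 3.55 CPM in siNC and 0.948, 0.610 and 0.306 CPM in siCLAP. There siNC-2 lay close to siNC-1, and the log2 fold change was -1.78 ± 0.38 (edgeR adjusted p = 0.0756). None of the 9 was at 0 in all libraries. Their part in the values of the myelin genes was not tested.

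Markers of fibroblasts and perineurium summed to 595, 399 and 593 CPM in siNC and 538, 635 and 427 CPM in siCLAP. siNC-2 was again the lowest control library, but siCLAP-2, among the low libraries for the myelin genes, was the highest of all for this sum. Of 7 tested none passed, with Lum at 0.67 ± 0.15 and Slc2a1 at -0.16 ± 0.07 (edgeR adjusted p = 0.0795 and 0.28). The part of this list in the values of the myelin genes was not tested either.

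Satellite glia, the other main glia of the ganglion, had higher sums in siCLAP. Their 10 markers summed to 2734 to 2822 CPM in siNC and 2853 to 3175 CPM in siCLAP, and 1 of 10 rose. This was Ednrb, an endothelin receptor, at 0.45 ± 0.07 (edgeR adjusted p = 0.0317). It passed in 10 of 17 alternatives and lost its call with limma on log2 TPM and without siNC-1, siNC-3, siCLAP-1 or siCLAP-2. Fabp7, a fatty acid binding protein of these cells, stood at 0.38 ± 0.07 (edgeR adjusted p = 0.056), and Gja1, connexin 43, at 0.25 ± 0.08 (edgeR adjusted p = 0.168).

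Markers of large neurons, whose axons are the ones that are myelinated, summed to 10915 to 12031 CPM in siNC and 11532 to 12544 CPM in siCLAP. Of 8 tested 1 rose, Pvalb, a calcium-binding protein of proprioceptors, at 0.45 ± 0.06 (edgeR adjusted p = 0.0215). It passed in 12 of 17 alternatives and lost its call with limma on log2 TPM and without siNC-3 or siCLAP-1. Nefh, the heavy neurofilament, stood at 0.21 ± 0.07 and Spp1 at 0.33 ± 0.10 (edgeR adjusted p = 0.148 for both). General sensory neuron markers summed to 9059 to 9391 CPM in siNC and 9530 to 9827 CPM in siCLAP, with 0 of 8 passing, Isl1 at 0.16 ± 0.05 and Avil at -0.14 ± 0.05 (edgeR adjusted p = 0.134 and 0.163). Of 6 macrophage markers none passed. Cx3cr1 stood at 1.06 ± 0.38 and Cd68 at 0.58 ± 0.27 (edgeR adjusted p = 0.197 and 0.313), and the list summed to 20.2 to 27.0 CPM in siNC and 20.1 to 35.6 CPM in siCLAP. The part of these neuronal, satellite glial and macrophage values in those of the myelin genes was not tested.

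**Figure D5:**
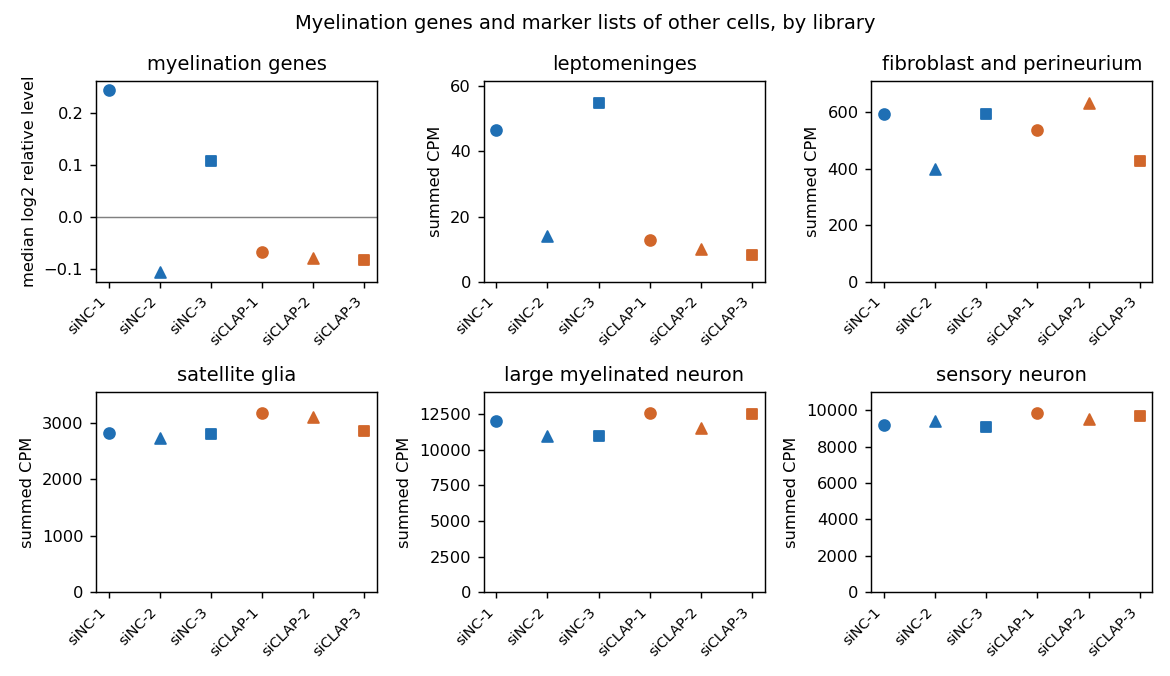
Median log2 relative level of the 30 myelination genes (first panel) and summed CPM of 5 marker lists (other panels, y axes from 0) in each of the 6 libraries. The leptomeningeal sum, from 8.25 to 55.0 CPM, is high in siNC-1 and siNC-3 as the myelination genes are, while the satellite glia and neuron sums vary much less.

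The total expected count ran from 21386768 to 46317735 reads per library, siNC-2, which had the lowest median of the 30 genes, being the deepest and siNC-3 the shallowest. The part of depth in the values was not tested. The 30 genes had between 68.5 and 51650 counts per library. They made up 0.356% to 0.423% of all TPM. In the annotation, exons of 13 of the 30 overlap another gene, 4 of them a protein-coding gene, while Egr2, Mal, Fa2h and Dusp15 overlap none. The library kit does not mark strand, so reads within a shared stretch of exon cannot be told apart by strand.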

How the data were processed

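RNA of 6 libraries, 3 siNC and 3 siCLAP, was prepared with NEBNext Ultra reagents, per the labels' protocols, a kit known not to mark strand. The submitters' processing notes name mm10 as the build and list featureCounts 1.6.2, HISAT2 2.1.0 and FastQC 0.11.8. Annotation, strand setting and the handling of multiply mapped reads were not given in the sources used here. Files deposited by the authors give each gene a TPM value and an expected count. Of the deposited expected counts, 66.5% were whole within 1e-06, and all 30 genes had a count that was not whole in at least 1 library.

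Expected counts were rounded and tested with edgeR 4.0.16 (R 4.3.3) by quasi-likelihood, with TMM factors of 0.995 to 1.011 and no covariate. Only genes whose TPM averaged at least 1 were kept. The threshold was a Benjamini-Hochberg adjusted p of 0.05 over 19141 genes. The standard error is the log2 fold change over the root of F. The biological coefficient of variation was 6.78%. Values per library are TMM-normalised CPM. An exact permutation test of 3 against 3 libraries cannot give a p below 0.1, so none was used. The scripts were tested on simulated data. Libraries of a group differed by more than counting noise (mean chi-square per gene of 4.11 to 9.14), so none repeated another of its group. Pairs across the groups were not checked in this way. A floor of 3 counts is 0.0648 to 0.14 CPM and covers counting error only.

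All 30 genes are named. From every other list the genes that passed and up to 2 further genes with the smallest p are named. The genes and lists were chosen with earlier results of these data known. The oligodendrocyte genes set apart as low or at 0 were chosen after their values were seen. Alternatives were DESeq2 1.42.0, limma 3.58.1 (voom, and log2 TPM with pseudocounts of 0.5, 0.1 and 1), other scaling factors, other filters, a block for replicate number, and leaving out each library in turn. The genes outside the 30 were added to these alternatives after seeing the data. Gene coordinates and overlaps came from GENCODE M21 on GRCm38, which held all 30 symbols. Promoter windows came from RefSeq on GRCm38.p6.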

Additional observations from a re-analysis of the deposited data

How the results depend on the processing

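Over all genes, 56 passed in edgeR's fit and 3248 had an unadjusted p under 0.05. DESeq2 called 611, edgeR on all genes above 0 called 835, with a TPM filter of 5 in place of 1 it called 118, and limma on log2 TPM called 0 with each pseudocount (3017 to 3040 at an unadjusted p under 0.05). Leaving out 1 library gave 0 to 336, with 4 without siNC-3, 0 without siCLAP-1 (1956 at an unadjusted p under 0.05) and 157 without siNC-2. Of the 30 myelination genes, 1 fell in the fit, beside 42 of all 19141 genes tested. DESeq2 called 5 lower, beside 373 of 19141. On all genes above 0, edgeR called 7 lower, beside 551 of 30347. With limma on log2 TPM 0 passed, and 9 were lower and 0 higher at an unadjusted p under 0.05. The limma totals over all genes at that p, given above, hold both directions. With 1 library left out, 0 to 6 of the 30 fell. None rose in any of these analyses. The median log2 fold change of the 30 stayed below 0 in all 17 alternatives. Leaving out 1 library gave ranges that crossed 0 for Mbp (-0.296 to 0.0096), Pmp2 (-0.545 to 0.00504), Gjc3 (-0.108 to 0.00402), Gldn (-0.251 to 0.109) and Prx (-0.321 to 0.055), and the cause was not tested.

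Libraries of the 2 groups share only a replicate number. Deviations from the group means correlated at 0.066, 0.0077 and -0.044 between same-numbered libraries. Between libraries of different numbers the correlations ran from -0.107 to 0.087. With 3 libraries per group, these values cannot decide whether the numbers pair them. With the replicate number as a block, 203 of all 19141 genes passed, 149 lower and 54 higher. Of the 30, 3 fell (Arhgef10, Dusp15 and Egr2).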
